A study of Mus musculus with 2 samples.

Results

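The elastic fibre and microfibril genes described here are 10 genes chosen by name: Eln, Fbn1, Fbln1, Fbln2, Fbln5, Efemp1, Mfap2, Mfap4, Mfap5 and Emilin1. All 10 had a row among the 32285 genes of the deposited matrix. They were measured by droplet single-cell RNA sequencing of whole skin from C57BL/6 mice of 8 weeks, digested to single cells with Liberase and DNase. The cells came from control mice and from mice given the anti-Ly6G antibody, clone 1A8, for 2 consecutive days to deplete neutrophils. Both kinds of cell were marked with hashtag antibodies and pooled in 1 RNA library. The matrix held 0 hashtag rows and no condition in its barcode names, so control and depleted skin were not compared, and every value describes the pool. With 1 library there was no replicate, no test was made and no p-value is given. Intervals are 95% intervals and cover the counting of unique molecular identifiers (UMIs) only. A UMI marks 1 captured RNA molecule.

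Elastic fibres give skin and arteries their recoil. They have a core of crosslinked elastin on a scaffold of microfibrils, and in skin both are laid down mainly by dermal fibroblasts. Eln encodes tropoelastin, the soluble elastin precursor. Fbn1 encodes fibrillin-1, which polymerises into the microfibril, and Mfap2 and Mfap5 encode small glycoproteins (MAGP-1 and MAGP-2) that bind fibrillin. Mfap4 encodes a fibrinogen-like glycoprotein found with elastin and fibrillin. The fibulins link these parts: Fbln5 brings tropoelastin to the microfibril, Efemp1 encodes fibulin-3, and Fbln1 and Fbln2 lie in elastic fibres and in basement membranes. Emilin1 encodes a glycoprotein at the border of elastin and microfibril.

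The genes lie on 7 chromosomes of mm10. Gene spans are those of the GENCODE annotation. Eln spans chromosome 5 from 134702593 to 134747323 on the minus strand, and Emilin1 the same chromosome from 30913402 to 30921277 on the plus strand. Fbn1 spans chromosome 2 from 125300594 to 125507993 on the minus strand. Fbln2 and Mfap5 are both on the plus strand of chromosome 6, from 91212455 to 91272540 and from 122505845 to 122529290. Efemp1 and Mfap4 are both on the plus strand of chromosome 11, from 28853204 to 28926743 and from 61485431 to 61488900. Fbln1 spans chromosome 15 from 85205949 to 85286535 and Mfap2 chromosome 4 from 141010418 to 141015984, both on the plus strand, and Fbln5 chromosome 12 from 101746565 to 101819055 on the minus strand. Exons of 3 members overlap a gene on the other strand: Gm30003 at Eln, Gm9913 at Fbn1 and Mapk7 at Mfap4. These neighbours had 45, 79 and 690 UMIs, against 11145, 58597 and 2833 for the members. The sources used here do not state whether strand was used in counting.

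The sequences before the starts of Efemp1 and Fbln1 are printed because of the members measured in keratinocytes they had the highest ratios to the level that carried-over fibroblast RNA would give, Efemp1 in basal and Fbln1 in hair follicle keratinocytes, and that of the fibulin gene Fbln5 because it was found above that level, beyond counting error, in no class. Each is the 250 bases before the gene's RefSeq start on GRCm38.p6, read 5′ to 3′ on the gene's strand, with motif matches in capitals. RefSeq held a promoter entry for 7 of the 10 members. Fbln1 and Fbln5 had 2 entries each, of which 1 is printed and the other is not described. The printed windows are Efemp1 at chr11:28852955-28853204 on the plus strand, Fbln1 at chr15:85205699-85205948 on the plus strand and Fbln5 at chr12:101819120-101819369 on the minus strand.
Efemp1: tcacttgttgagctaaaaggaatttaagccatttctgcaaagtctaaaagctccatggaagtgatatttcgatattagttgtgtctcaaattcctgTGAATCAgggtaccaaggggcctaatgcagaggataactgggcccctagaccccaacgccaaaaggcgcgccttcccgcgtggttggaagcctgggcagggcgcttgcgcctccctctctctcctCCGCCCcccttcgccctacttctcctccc
Fbln1: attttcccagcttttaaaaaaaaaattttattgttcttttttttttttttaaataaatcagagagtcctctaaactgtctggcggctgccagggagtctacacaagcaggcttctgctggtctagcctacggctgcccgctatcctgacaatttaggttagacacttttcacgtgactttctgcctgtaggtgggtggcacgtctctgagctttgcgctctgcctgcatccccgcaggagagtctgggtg
Fbln5: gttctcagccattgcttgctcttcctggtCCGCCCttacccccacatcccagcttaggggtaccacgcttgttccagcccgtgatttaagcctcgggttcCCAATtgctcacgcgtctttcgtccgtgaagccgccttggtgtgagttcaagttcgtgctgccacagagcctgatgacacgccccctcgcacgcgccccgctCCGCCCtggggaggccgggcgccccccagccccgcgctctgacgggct
The motifs searched, on both strands, were the GC box GGGCGG, the TATA box TATAAA, the AP-1 site TGANTCA and the CCAAT box CCAAT, and no printed match overlaps another. Over 32851 promoter entries, 32.7% held the GC box, 12.4% the TATA box, 6.75% the AP-1 site and 33.9% the CCAAT box. The Efemp1 window held 1 GC box and 1 AP-1 site, the Fbln5 window 2 GC boxes and 1 CCAAT box, and the Fbln1 window none of the 4. Their GC contents were 53.6%, 65.2% and 46.4%, where the median entry had 52.4%. A match is a description of the letters and shows no binding.

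Of 8367 barcodes with 83725065 UMIs, 8127 passed the minimum of 200 genes and the maximum of 20% mitochondrial UMIs, and 7822 remained after 305 called doublets were removed. Barcodes were gated into cell classes by marker genes, none of which is a member. The fibroblast gate, on Dcn, Lum, Col1a1, Pdgfra and 22 subset markers, took 3651 barcodes with 40511740 UMIs. A further 3014 barcodes fell into other classes and 1157 into none; these last held Mfap4 at 38.6 CPM and Fbn1 at 376.9 CPM and enter no comparison. Dcn, a matrix proteoglycan, is among the gate's own markers, so its level is no check of the gate. It was at 10210 counts per 1000000 UMIs (CPM) in fibroblasts and 153.5 CPM in the other gated barcodes. No class of blood or lymphatic endothelial cells, Schwann cells, melanocytes, tendon cells or adipocytes reached the minimum of 15 barcodes.

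All 10 members were higher in fibroblasts than in the other gated barcodes by at least 2-fold, where 19.7% of 15002 genes were, and the median fold was 49.2 against 0.894 over all those genes. Fbn1 was at 1340 CPM in fibroblasts and 22.2 CPM in the others, 60.3-fold (55.7 to 65.4). Mfap5 was at 998 and 20.2 CPM, 49.3-fold (45.4 to 53.6), and Mfap2, the other fibrillin-binding glycoprotein gene, at 168 and 3.36 CPM, 50.04-fold (40.9 to 61.9). Eln was at 248 and 5.06 CPM, 49.1-fold (41.6 to 58.3). Mfap4 was at 60.3 and 0.495 CPM, 122-fold (72.4 to 223), on 14 UMIs outside fibroblasts.

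Among the fibulins, Fbln5 had the highest fold, with 122 CPM in fibroblasts and 2.37 CPM in the others, 51.3-fold (40.3 to 66.3). Fbln2 was 44.9-fold higher (39.9 to 50.8) and Fbln1 27.6-fold (24.5 to 31.1). Efemp1 was at 744 CPM in fibroblasts but 33.5 CPM in the others, 22.2-fold (20.8 to 23.7). Emilin1, at 42.7 and 2.41 CPM, had the lowest fold of the members, 17.8 (13.9 to 23.0). The folds moved with the treatment of doublets: with called doublets kept, Mfap4 was 40.4-fold, Eln 21.7-fold and Fbn1 27.3-fold higher. Fewer cells that express a gene and less RNA of it in each cell give the same sum over a class and cannot be told apart from such sums.

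**Figure D1:**
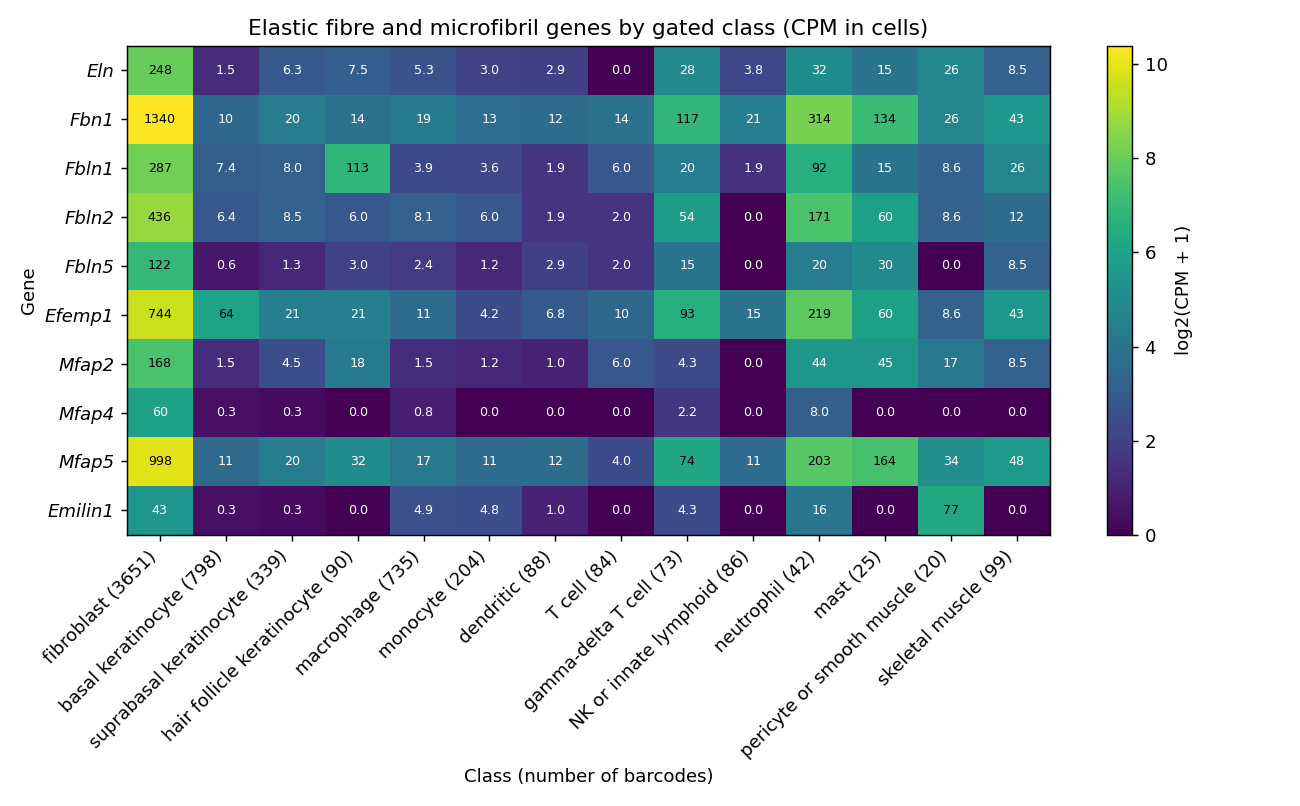
Level of each member (rows, CPM printed in each cell, colour on the log2(CPM + 1) scale) in each gated class (columns, number of barcodes in brackets). Rows are to be read across; 9 of the 10 genes are highest in the fibroblast column, and Emilin1 is at 77 CPM in the 20 pericyte or smooth muscle barcodes.

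The members' levels in other classes were set against the fibroblast RNA that those barcodes carry. The measure of carried RNA was the summed UMIs of Col3a1, Col1a2, Serpinf1 and Col6a3, genes of secreted fibroblast proteins that are neither members nor gate markers. If a member came into a class only with such RNA, its UMIs per UMI of these 4 genes would be as in fibroblasts. Of 130 pairs of member and class, 111 had at least 1 UMI expected in this way. In 19 of them the observed count was at least 2-fold the expected count, and in 14 of the 19 the interval of the ratio lay above 1. Among all genes at least 5-fold higher in fibroblasts, the share past 2-fold was 58.2% in basal, 45.3% in suprabasal and 59.9% in hair follicle keratinocytes, where 3, 4 and 4 members passed. It was 45.3% in macrophages, 33.2% in dendritic cells, 42.9% in T cells, 20.8% in mast cells and 22.5% in skeletal muscle, with 1 member each, and 38% in gamma-delta T cells, with 3 members. In monocytes (42%), NK or innate lymphoid cells (31.2%), neutrophils (11.7%) and pericyte or smooth muscle barcodes (42.2%), 0 members passed. Emilin1 had less than 1 UMI expected in monocytes and in pericyte or smooth muscle barcodes, and was not counted there. Among counted pairs the members' share lay below that of these genes in each of the 13 classes, and it was 17.1% over the 111 pairs. The ratio to the expected count equals the reference genes' fold divided by the gene's own fold, so genes of lower fold pass more readily. The compared genes start at 5-fold and the members' median was 49.2-fold, so the lower share is no separate result. Summed over all other classes, where 68.8% of fibroblast genes passed, the 3 members past 2-fold were Fbln1, Efemp1 and Emilin1. These are also the 3 members with the lowest folds. Without the barcode that held most UMIs of each pair, 6 of the 19 pairs remained past 2-fold.

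Fbn1 was within 2-fold of its expected count, or below it, in every one of the 13 other classes. In basal keratinocytes it had 90 UMIs against 78.4 expected, in macrophages 136 against 133.8, and in neutrophils 79 against 75.4. The neutrophil barcodes stood at 314 CPM of Fbn1, and their 4 reference genes at 2416 CPM, against 167.5 CPM over all other gated barcodes. Mfap4 passed in no class, with 0 to 6 UMIs in each.

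Efemp1 had the most UMIs above its expected count outside fibroblasts. In basal keratinocytes, the dividing layer of the epidermis, it had 556 UMIs against 43.5 expected, 12.8-fold (11.7 to 13.9), which is 64.4 CPM (59.1 to 69.9). The UMIs were spread over 307 of 798 barcodes, and the barcode with the most held 2.34% of them. In suprabasal keratinocytes, the differentiating layers above, Efemp1 was at 21.4 CPM with 85 UMIs against 36.3 expected, 2.34-fold (1.87 to 2.89). Fbn1 in the same basal barcodes was at its expected count, and Dcn was at 79.9 CPM. With doublets kept the basal ratio was 5.89.

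Fbln1 was at 113 CPM (89.0 to 142) in hair follicle keratinocytes, gated on Krt79, Krt17, Lhx2, Sox9 and Krt6a, and at 7.41 and 8.04 CPM in basal and suprabasal keratinocytes. Its 75 UMIs there stood against 2.77 expected, 27.1-fold (21.3 to 34.0), and came from 34 of 90 barcodes. This ratio moved to 50.8 with a minimum of 500 genes per barcode and to 7.27 with doublets kept. With 1 more marker per gate it was 81.5, but less than 1 UMI was then expected, so the pair was not counted there. Mfap2 also stood above its expected count in these barcodes, with 12 UMIs against 1.62, 7.40-fold (3.82 to 12.9), but 5 of the 12 came from 1 barcode and without it the ratio was 4.37. In basal keratinocytes Fbln1 had 64 UMIs against 16.8 expected, 3.82-fold (2.94 to 4.87), and 2.31-fold when clusters replaced the gates.

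Emilin1 stood above its expected count, beyond counting error, in macrophages, monocytes and pericyte or smooth muscle barcodes, and in no class of keratinocytes. In macrophages it had 35 UMIs against 4.27 expected, 8.20-fold (5.69 to 11.5), at 4.88 CPM and in 29 of 735 barcodes; with doublets kept the ratio was 4.86. In monocytes it was at 4.82 CPM, with 8 UMIs in 8 barcodes, where less than 1 was expected. In the 20 pericyte or smooth muscle barcodes Emilin1 was at 77.2 CPM (35.3 to 147) with 9 UMIs in 5 barcodes. That interval holds its 42.7 CPM in fibroblasts. Only 0.535 UMIs were expected, so the pair was not counted, and the ratio was 16.8 (7.68 to 32.0). The reference genes were at 1159 CPM there but Dcn at 137 CPM, and whether these cells express the reference genes was not tested. Of the gate markers, Acta2, Myh11 and Tagln were found in 100% of them, Notch3 in 70%, Rgs5 in 25% and Kcnj8 in 0%. With clusters in place of gates the pericyte or smooth muscle level was 43.9 CPM. Emilin1 had 0 UMIs in hair follicle keratinocytes, which allows up to 4.52 CPM.

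**Figure D2:**
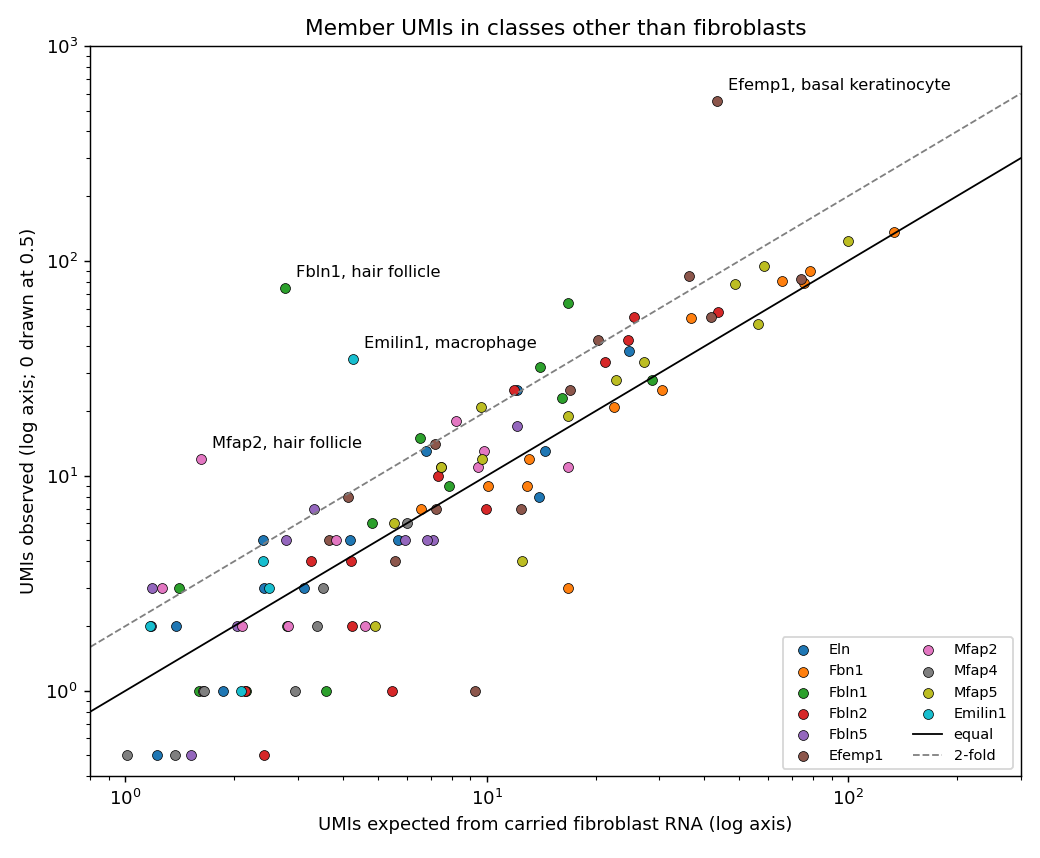
UMIs observed (vertical, log axis) against UMIs expected from carried fibroblast RNA (horizontal, log axis) for the 111 pairs of member and class with at least 1 expected UMI; the solid line marks equality and the dashed line 2-fold. Most points follow the solid line, while Efemp1 in basal keratinocytes (556 against 43.5) and Fbln1 in hair follicle keratinocytes (75 against 2.77) lie above the dashed one.

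Within fibroblasts, 7 subsets were gated and are called by their leading gate gene: Pi16 (699 barcodes), Cxcl13 (629), Crabp1 (334), Nova1 (258), Rasgef1c (192), Cyp2f2 (154) and Cilp (127). A further 1258 fibroblasts fell into no subset. Over the 7 subsets, 6 members spanned more than 4-fold between the lowest and the highest level. The share of all genes with such a span was not computed, so the count is no result about this set. Mfap4 spanned 236-fold (154 to 383) from Cyp2f2-gated to Pi16-gated fibroblasts, Mfap5 41.4-fold, Efemp1 32.8-fold, Fbln2 18.2-fold, Eln 16.4-fold and Fbn1 13.5-fold. For every member but Mfap4 the lowest level was that of Crabp1-gated fibroblasts. For Fbln5, Mfap2 and Emilin1 that level did not differ beyond counting error from the next subset (ratios 1.20, 1.02 and 1.03). For the rest of these members the gap was beyond counting error, and the other subsets lay closer together. Without Crabp1-gated fibroblasts, Fbn1 lay between 1033 and 1759 CPM and Fbln2 between 392 and 1181 CPM. Mfap5 then lay between 381 and 1711 CPM, Efemp1 between 126 and 928 CPM and Eln between 123 and 687 CPM. The remaining 4 spanned less: Fbln1 3.21-fold, Fbln5 2.98-fold, Emilin1 2.22-fold and Mfap2 1.88-fold. When each gene's subsets were put in order of level, the interval of the ratio of neighbours held 1 in 27 of 60 neighbouring pairs. For Emilin1 that was so for all 6 pairs, and for Eln for none.

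**Figure D3:**
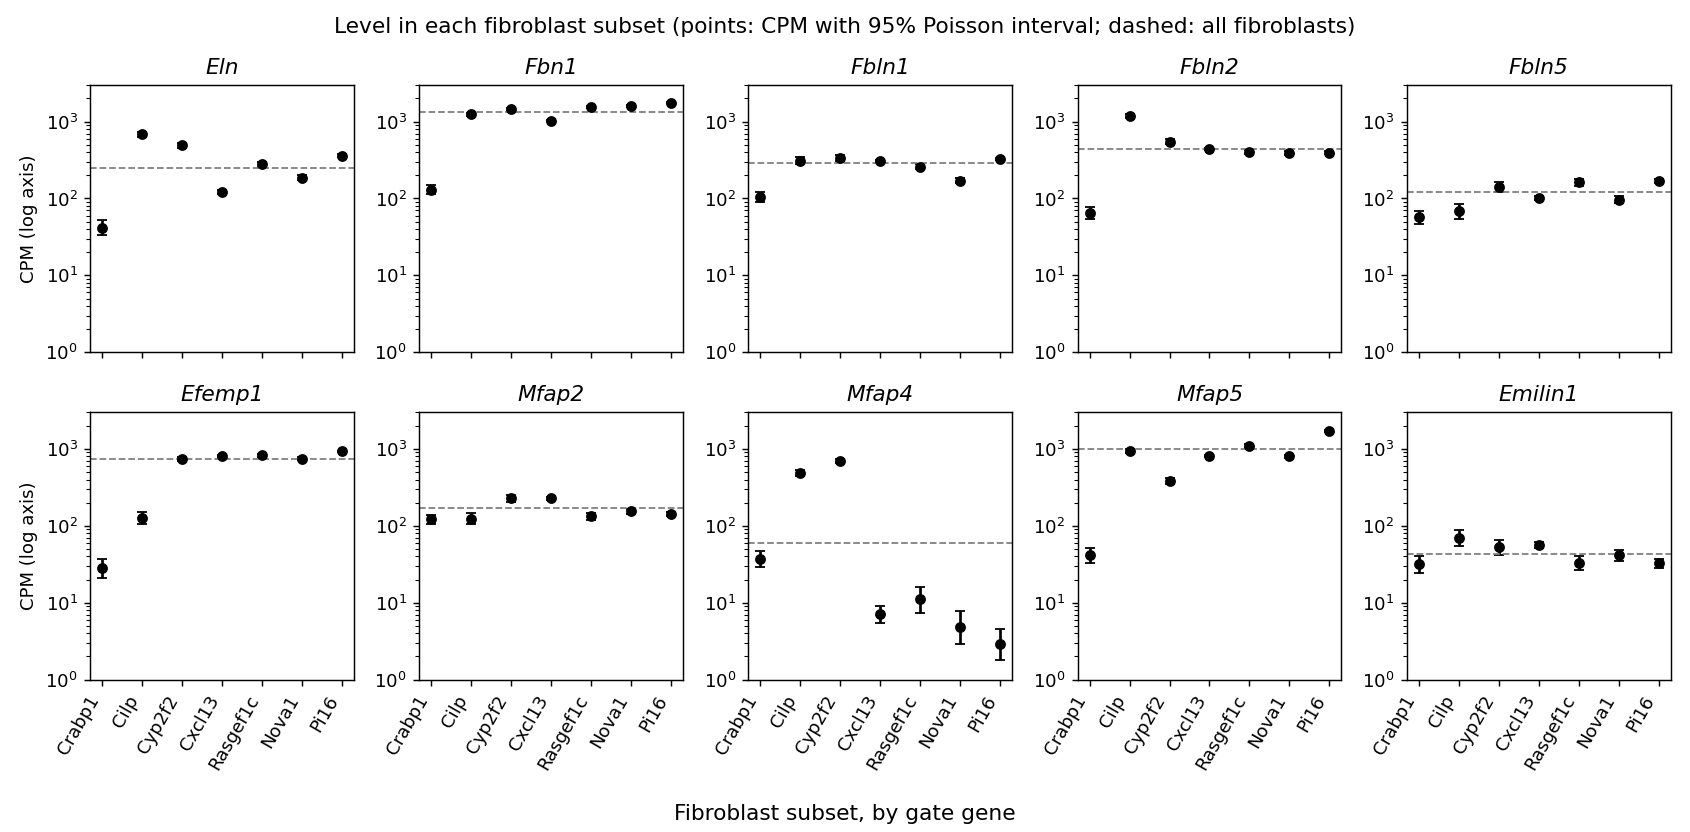
Level of each member (1 panel each, CPM on a log axis) in the 7 fibroblast subsets, with 95% Poisson intervals; the dashed line is the level over all fibroblasts. Mfap4 runs from 2.93 CPM in Pi16-gated to 692 CPM in Cyp2f2-gated fibroblasts, while Mfap2 stays between 121 and 228 CPM.

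Crabp1-gated fibroblasts, defined by Crabp1, Dkk2, Lef1 and Ptch1, had low levels of most of the set. Of the 10 members, 7 were lower there than in the other fibroblasts by at least 2-fold, where 17.8% of 12727 genes were lower and 21.8% higher, and 0 members were higher. Efemp1 was at 28.3 CPM (0.0364-fold, 0.0272 to 0.0478) and Mfap5 at 41.4 CPM (0.0397-fold, 0.0312 to 0.0497). Fbn1 was at 130 CPM (0.0931-fold, 0.0816 to 0.106), Fbln2 at 64.8 CPM (0.143-fold) and Eln at 41.9 CPM (0.162-fold). Fbln1 was at 0.357-fold and Fbln5 at 0.454-fold. The 3 members under 2-fold in difference were Mfap4 (0.603-fold), Mfap2 (0.712-fold) and Emilin1 (0.730-fold).

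The Crabp1-gated barcodes also differed in other measures. Their median was 4616 UMIs per barcode, against 10830 over all fibroblasts, and their median Malat1, a nuclear RNA, was 46130 CPM against 4176. Dcn was at 542 CPM, Pdgfra, a receptor gene of fibroblasts, at 266 CPM against 364 CPM over all fibroblasts, and the 4 reference genes at 1670 CPM against 10790. The part of depth and of nuclear RNA in the low levels was not tested. Per UMI of the 4 reference genes, Efemp1 was still 0.245-fold (0.183 to 0.321), Mfap5 0.266-fold (0.210 to 0.334) and Fbn1 0.625-fold (0.548 to 0.710) of the other fibroblasts. On that scale Fbln2 was 0.960-fold (0.795 to 1.15) and Eln 1.09-fold (0.860 to 1.36). The direction turned, beyond counting error, for 5 members: Fbln1 was 2.40-fold (2.07 to 2.77), Fbln5 3.05-fold, Mfap4 4.05-fold (3.13 to 5.15), Mfap2 4.78-fold and Emilin1 4.90-fold. Any gene lowered less than the reference genes turns on this scale, and no share over all genes was computed on it. By CPM the median fold was 0.260 for the members and 1.15 over all 12727 genes, so the turn does not show enrichment of these members. With clusters in place of gates Eln was at 0.437-fold, Fbln5 at 0.604-fold and Mfap4, in the other direction from the gated value, at 2.09-fold. With doublets kept Efemp1 was at 0.0953-fold and Mfap5 at 0.106-fold.

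Cilp-gated fibroblasts, defined by Cilp, Thbs4, Myoc and Cilp2, had high Eln, Fbln2 and Mfap4 and low Efemp1. Here 3 members were at least 2-fold higher, where 5.7% of genes were, and 1 was at least 2-fold lower, where 11.3% were. Eln was at 687 CPM (639 to 737), the highest of the subsets and 2.91-fold (2.70 to 3.13) the other fibroblasts. Fbln2 was at 1181 CPM (1118 to 1246), 2.85-fold (2.69 to 3.01), and 2.15-fold the next subset. Mfap4 was at 482 CPM (443 to 525), 9.98-fold (9.05 to 11.0). Efemp1, the fibulin-3 gene, was at 126 CPM (106 to 149) against 745 to 928 CPM in the other subsets bar the Crabp1-gated, 0.166-fold (0.140 to 0.196). Fbln5 was at 68.2 CPM, 0.553-fold, and Emilin1 at 69.9 CPM, 1.67-fold (1.31 to 2.09).

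Cyp2f2-gated fibroblasts, defined by Cyp2f2 and C1qtnf3, had the highest Mfap4 and low Mfap5. Mfap4 was at 692 CPM (650 to 736), 19.0-fold (17.5 to 20.6) the other fibroblasts. Eln was at 490 CPM (455 to 527), 2.05-fold (1.90 to 2.21), so 2 members were at least 2-fold higher, where 6.35% of genes were. This Eln fold was 1.97 without the barcode with the most Eln UMIs and 1.84 by clusters. Mfap5 was at 381 CPM (350 to 414), 0.373-fold (0.343 to 0.405), and was the 1 member at least 2-fold lower, where 11.8% of genes were. The 4 reference genes were at 23410 CPM here, the highest of the subsets. Per UMI of those genes, Eln was 0.902-fold of the other fibroblasts, Mfap4 8.37-fold and Mfap5 0.164-fold.

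Pi16-gated fibroblasts, defined by Pi16, Dpp4 and Sema3c, had the highest Fbn1, Fbln5, Efemp1 and Mfap5 and almost no Mfap4. Mfap5 was at 1711 CPM (1681 to 1742), 2.03-fold (1.98 to 2.07) the other fibroblasts and the 1 member at least 2-fold higher, where 0.943% of genes were. By clusters this fold was 1.73. Fbn1 was at 1759 CPM (1729 to 1790), 1.41-fold, Fbln5 at 169 CPM, 1.51-fold, next to 162 CPM in Rasgef1c-gated fibroblasts (ratio 1.04, 0.934 to 1.17), Efemp1 at 928 CPM, 1.32-fold, and Eln at 361 CPM, 1.61-fold. Mfap4 was at 2.93 CPM (1.82 to 4.48), on 21 UMIs in 9 of 699 barcodes, 0.0404-fold (0.0249 to 0.0618), and was the 1 member at least 2-fold lower, where 7.98% of genes were. Its level did not differ beyond counting error from the 4.88 CPM of Nova1-gated fibroblasts (ratio 1.67, 0.837 to 3.29).

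The remaining subsets differed from other fibroblasts in fewer members. In Cxcl13-gated fibroblasts, defined by Cxcl13, Vegfd and Mmp3, Eln at 123 CPM (0.437-fold, 0.409 to 0.466) and Mfap4 at 7.08 CPM (0.0955-fold) were at least 2-fold lower, where 11.5% of genes were, and 0 were higher, where 0.479% were. By clusters Eln there was 0.531-fold. Mfap2 had its highest level in this subset, 228 CPM, next to 227 CPM in Cyp2f2-gated fibroblasts, and these neighbours did not differ beyond counting error (ratio 1.00, 0.893 to 1.13). In Nova1-gated fibroblasts, defined by Nova1, Nkain2 and Nox4, Mfap4 was at 4.88 CPM (0.0742-fold) and was the 1 member lower by 2-fold, where 5.75% of genes were lower and 1.96% higher, and Fbln1 was at 170 CPM, 0.571-fold. The cluster named for Nova1 held other barcodes and gave other values, with Fbln2 at 0.121-fold and Mfap2 at 0.0949-fold. In Rasgef1c-gated fibroblasts, defined by Rasgef1c, Cd55b and Adamts9, Mfap4 at 11.0 CPM (0.173-fold) was the 1 member lower by 2-fold, where 7% of genes were lower and 6.04% higher. There 26 of its 29 UMIs came from 1 barcode, and without it the fold was 0.0187, below the 0.0279 of Pi16-gated fibroblasts under the same setting, so which subset was lowest in Mfap4 rested on that barcode.

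Most UMIs of Mfap4 came from a small share of the fibroblasts. Cyp2f2-gated fibroblasts were 4.22% of the fibroblast barcodes and held 41.8% of the fibroblasts' Mfap4 UMIs, and Cilp-gated fibroblasts were 3.48% and held 22.0%. Fibroblasts in no subset held 28.2%, with UMIs in 117 of 1258 barcodes. For Fbn1, the Cyp2f2-gated and Cilp-gated fibroblasts held 3.94% and 2.54% of the UMIs.

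The UMIs of 1 member per UMI of another also differed between subsets; only the change between subsets is read, since gene length bears on the ratio itself. Mfap5 had 12.2 UMIs per UMI of Mfap2 (11.4 to 12.98) in Pi16-gated fibroblasts, 3.52 in Cxcl13-gated, 1.68 in Cyp2f2-gated and 0.341 (0.259 to 0.444) in Crabp1-gated fibroblasts. Most of this span was in Mfap5, whose level alone spanned 41.4-fold, against 1.88-fold for Mfap2. Fbln2 had 9.34 UMIs per UMI of Efemp1 (7.85 to 11.2) in Cilp-gated and 2.29 in Crabp1-gated fibroblasts, against 0.425 to 0.738 in the other 5. Mfap4 had 1.82 UMIs per UMI of Mfap5 in Cyp2f2-gated fibroblasts and 0.00171 in Pi16-gated fibroblasts. Fbn1 had 1.80 UMIs per UMI of Eln (1.65 to 1.97) in Cilp-gated fibroblasts, 4.88 in Pi16-gated, 8.41 in Cxcl13-gated and 8.56 (7.91 to 9.28) in Nova1-gated fibroblasts. Fbln5, which tethers tropoelastin, had 0.0992 UMIs per UMI of Eln in Cilp-gated and 1.35 in Crabp1-gated fibroblasts.

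**Figure D4:**
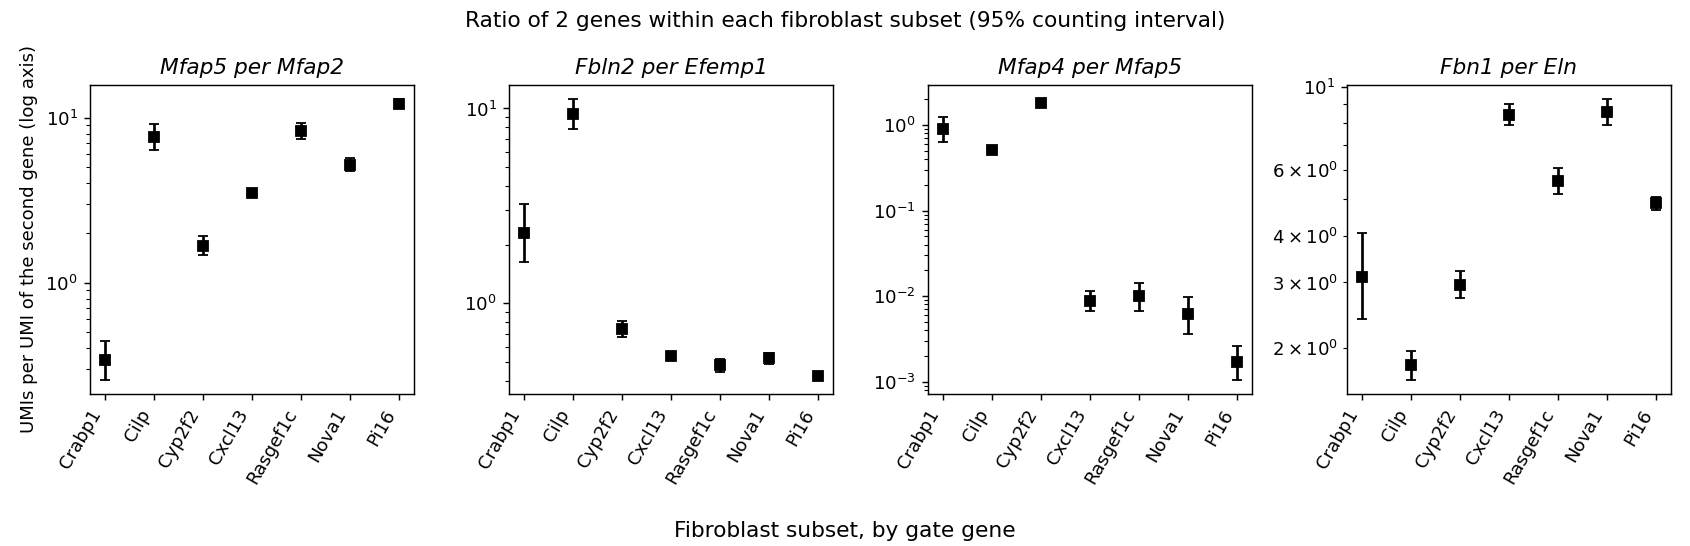
UMIs of 1 gene per UMI of another (vertical, log axis) in each fibroblast subset, with 95% counting intervals, for 4 pairs. Fbln2 per Efemp1 is highest in Cilp-gated fibroblasts at 9.34, and Mfap4 per Mfap5 runs from 1.82 in Cyp2f2-gated to 0.00171 in Pi16-gated fibroblasts.

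The share of barcodes with a UMI was compared after each barcode was thinned to 1000 UMIs, with 16 of 3651 fibroblasts left out as shallower. A UMI of Fbn1 was found in 62.1% of fibroblasts (60.5 to 63.7), of Mfap5 in 51.0%, of Efemp1 in 45.9%, of Fbln2 in 31.6%, of Fbln1 in 24.6% and of Eln in 18.9%. Mfap2 was found in 13.7%, Fbln5 in 11.3%, Emilin1 in 3.88% and Mfap4 in 3.82%. Unthinned, the Fbn1 share was 91.7% and the Eln share 66.7%. Basal keratinocytes, at a median of 10710 UMIs near the 10830 of fibroblasts, gave the background: 0.630% for Fbn1, 1.13% for Mfap5 and 0 of 794 barcodes for Eln, which allows up to 0.378%. Efemp1 was found in 5.16% of them, above these shares. Fbln1 was found in 15.6% of the 90 hair follicle keratinocytes.

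The thinned shares of Mfap4 and Eln differed widely between subsets. Mfap4 was found in 31.2% of Cyp2f2-gated and 28.3% of Cilp-gated fibroblasts, against 0.287% of Pi16-gated fibroblasts. Eln was found in 40.2% of Cilp-gated and 11.1% of Cxcl13-gated fibroblasts. The order of shares was not always that of the levels, but in the examples here the intervals overlapped. The Fbn1 share was 78.6% (72.2 to 84.2) in Rasgef1c-gated and 74.7% (71.35 to 77.9) in Pi16-gated fibroblasts. The Mfap2 share was 14.8% (11.1 to 19.0) in Crabp1-gated and 10.8% (8.56 to 13.3) in Pi16-gated fibroblasts. The CPM of Mfap2 was lowest in Crabp1-gated fibroblasts, within counting error of the Cilp-gated level. The thinned Crabp1-gated barcodes had a UMI of no member in 59.9% of cases, against 8.20% over all fibroblasts and 0.521% in Rasgef1c-gated fibroblasts. The median thinned fibroblast had UMIs of 3 of the 10 genes, and the median Crabp1-gated barcode of 0.

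**Figure D5:**
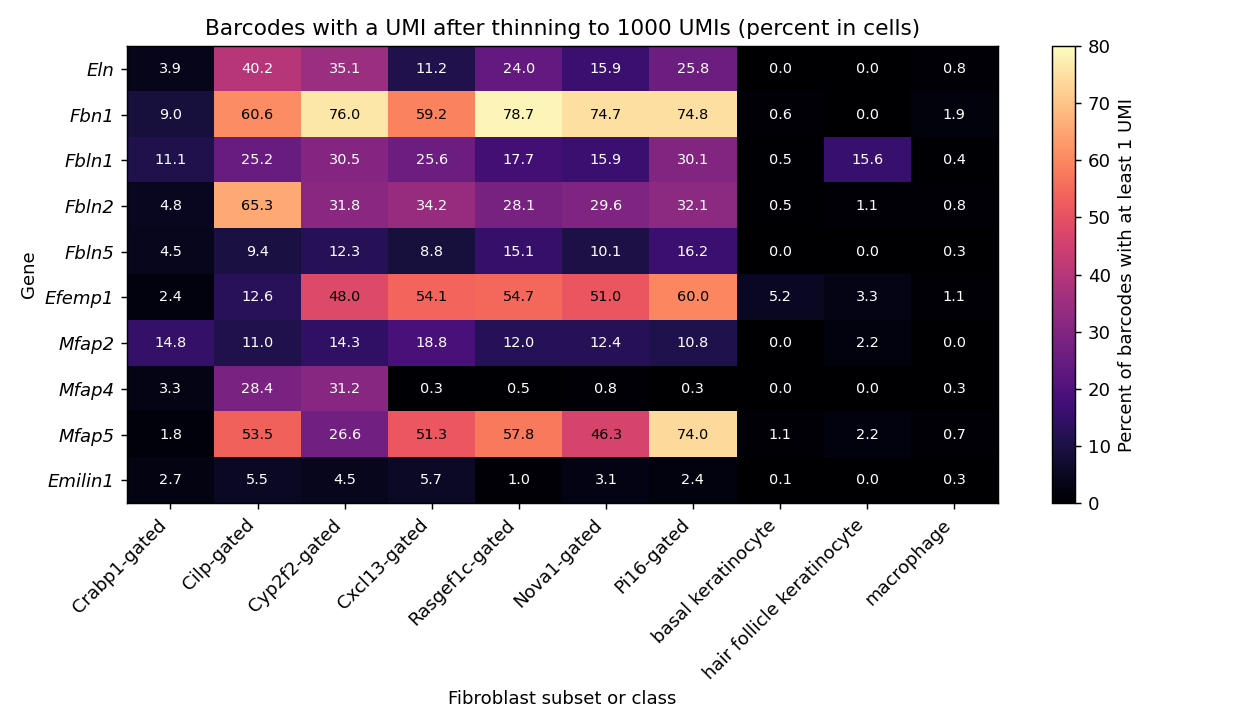
Percent of barcodes with at least 1 UMI of each member after thinning to 1000 UMIs (printed and as colour), in the 7 fibroblast subsets and 3 other classes. Fbln1 stands at 15.6% in hair follicle keratinocytes and Efemp1 at 5.2% in basal keratinocytes, and the other values in the 3 right columns are 3.3% or less.

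Other genes of elastic fibre assembly were taken from 4 lists and compared in the same way, fibroblasts over the other gated barcodes. Over all 15002 genes, 19.7% were at least 2-fold higher in fibroblasts and 23.8% lower, and the median fold was 0.894. Of 18 microfibril and elastic fibre partners, 17 had the 50 UMIs needed. Of these, 13 were at least 2-fold higher in fibroblasts and 0 lower, with a median of 4.22-fold. Fbn2, the second fibrillin, was 63.1-fold higher (31.9 to 147) at 17.9 CPM, Adamtsl2, which encodes a fibrillin-binding protein, 29.5-fold and Ltbp1, a latent TGF-beta binding protein of microfibrils, 21.8-fold. The lowest folds were those of Ltbp2 (0.877), Adamts17 (0.824) and Mmrn2 (0.819), each within counting error of 1.

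All 6 crosslinking genes were at least 2-fold higher in fibroblasts, where 19.7% of all genes were, with a median of 48.1-fold. Lox and the lysyl oxidase-like genes, which oxidise lysines of elastin and collagen, ranged from 20.8-fold for Loxl3 through 47.1-fold for Loxl4, 49.1-fold for Loxl2 and 52.8-fold for Loxl1 to 69.1-fold for Lox. Tgm2, a transglutaminase, was 10.4-fold higher and stood at 240 CPM in pericyte or smooth muscle barcodes. Lox was highest in Cilp-gated fibroblasts at 306 CPM, where Eln was highest too, and at 55.4 CPM in Pi16-gated fibroblasts, 0.333-fold (0.3003 to 0.369), where Eln was above the other fibroblasts.

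Of 8 elastin-degrading genes 7 were measured, 4 higher and 3 lower in fibroblasts by at least 2-fold. Of all genes, 19.7% were higher and 23.8% lower. Ctsk, the cathepsin K gene, was 52.1-fold higher and reached 1289 CPM in Cyp2f2-gated fibroblasts. Mmp2 was 40.3-fold and Mmp14 15.3-fold higher. The 3 lower genes were those of leukocytes: Ctss was at 6.54 CPM in fibroblasts and 1436 CPM in monocytes, Mmp9 at 0.272 CPM and 386 CPM in neutrophils, and Mmp12, macrophage elastase, at 0.346 CPM and 28.9 CPM in dendritic cells. Of 7 integrin genes, whose products bind fibrillin or other matrix, 3 were at least 2-fold higher, where 19.7% of all genes were. These were Itgb3 (10.3-fold), Itgb5 (4.85-fold) and Itga5 (2.24-fold). Itga8 (1.31-fold), Itgb1 (1.18-fold) and Itgb6 (0.581-fold) had the lowest folds, and Itga8 was at 352 CPM in pericyte or smooth muscle barcodes.

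In Cilp-gated fibroblasts some microfibril and elastic fibre partners were high beside Eln, Fbln2 and Mfap4, and others were low. Of all genes, 5.7% were at least 2-fold higher there and 11.3% lower. Adamtsl2 was 22.9-fold (15.7 to 33.2) and Fbn2 3.02-fold (2.26 to 3.96) the other fibroblasts. Vtn was 6.70-fold and Adamts17, on 5 UMIs, 5.20-fold. Fbln7, a further fibulin, at 57.4 CPM (17.5-fold, 12.8 to 23.8) and Ltbp4, which binds fibulins and is needed for elastin assembly, at 548 CPM (3.88-fold, 3.57 to 4.22) are named after their values were seen. Ltbp1 was low there, at 67.2 CPM, 0.195-fold, as were Thsd4 (0.0530-fold, on 6 UMIs), Hmcn1 (0.486-fold) and Ltbp2 (0.431-fold, on 1 UMI). Vtn, Thsd4 and Hmcn1 are likewise named after their values were seen. In Crabp1-gated barcodes, where most members were low, Ltbp1 was 2.07-fold the other fibroblasts. Of 12727 genes, 21.8% were at least 2-fold higher in those barcodes.

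For each member, the genes with the most similar pattern were sought among 9905 other genes, by Pearson's r of log2(CPM + 1) over 20 groups, the 13 other classes and 7 subsets. These groups share 1 library, and most of the correlation reflects the difference between fibroblasts and the rest, so r over the 7 subsets alone is given beside it. Crabp1-gated fibroblasts were the lowest subset for every member but Mfap4. For Eln, Fbn1, Fbln1, Fbln2, Efemp1 and Mfap5 the gap to the next subset was beyond counting error, and r over subsets also carries it. For Fbln5, Mfap2 and Emilin1 they did not differ from the next subset beyond counting error. Nearest to Fbn1 were Mmp2 (r = 0.99, 0.97 over subsets), Clec3b and Dpt. Nearest to Mfap5 was Igfbp6 (0.99, 0.98), an insulin-like growth factor binding protein gene, then Nid1 and Clec3b. Nearest to Mfap4 were Penk (0.94, 0.97), the proenkephalin gene, and Pdgfrl (0.94, 0.98), then Zfp385b. Efemp1 was nearest to Glt8d2 (0.96, 0.97), Ly6c1 and Serpina3c. Eln was nearest to Islr (0.97, 0.72), Serpinf1 and Ccdc80, and Fbln2 to Ccdc80 (0.97, 0.86), Gpx3 and Dpt.

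Fbln1 was nearest to Angptl2 (0.96, 0.79), Ddah2 and Col5a2, Mfap2 to Adamts2 (0.97, 0.74), Ddah2 and Fkbp7, and Emilin1 to P3h1 (0.96, 0.71), Fkbp14 and Tmem119. Fbln5 was nearest to Bicc1 (0.97), but over the subsets that r was 0.06, and then to Scara5 (0.97, 0.83) and Galnt15. Among the members, r over the 7 subsets was highest for Fbn1 with Mfap5 (0.94) and Eln with Fbln2 (0.90), and lowest for Mfap4 with Efemp1 (-0.36) and Mfap4 with Fbln5 (-0.30). Crabp1-gated fibroblasts stood far below the other subsets in Fbn1 (130 CPM against at least 1033 CPM) and in Mfap5 (41.4 CPM against at least 381 CPM). No r was computed without them, so these values do not show that the genes vary together over the other subsets.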

How the data were processed

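The deposited matrix gives UMI counts as whole numbers, produced by the authors with Cell Ranger against mm10, per the submitters' processing notes; its version and the cell calling are not given in the sources used here. Control and depleted cells share 1 RNA library and could not be separated; the hashtag library was not used here.

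Barcodes with fewer than 200 genes (87) or over 20% mitochondrial UMIs (237) were removed, 240 in all. Doublets were called with scrublet in Scanpy 1.11.5 at an expected rate of 6%, and 305 (3.75%) were removed. Each barcode was scored for 20 marker lists and 7 fibroblast subset lists as the mean over markers of log2(1 + level over its mean over all barcodes), with counts scaled to 10000 per barcode. A class needed 3 detected markers and a margin of 0.5 over every other class family, and a subset 2 markers and a margin of 0.3. This scoring rule was set after seeing the data.

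For each group the UMIs were added up and divided to CPM, with an exact Poisson interval; folds have exact conditional and shares Clopper-Pearson intervals. Where nothing was counted, the limit is 3 counts. Background shares are over genes with at least 50 UMIs in the groups compared. Genes of similar pattern needed 500 UMIs. On simulated counts for the fibroblast comparison, 50 genes changed 4-fold gave a median of 4.02 and 92% of intervals held the true fold, and 14802 unchanged genes gave 95.6%. The simulated counts were Poisson sums, as the intervals assume, with no differences between cells. They check the calculation only, and not whether the intervals cover the spread between cells. Alternatives were 500 genes, 10% mitochondrial UMIs, doublets kept, Leiden clusters made without the members (leidenalg 0.10.2, igraph 0.11.9), 1 more marker per gate, equal weight per barcode, carried fibroblast RNA subtracted, the top barcode left out and other thinning depths. Python 3.11.15 ran NumPy 2.4.6, SciPy 1.17.1, pandas 2.3.3 and matplotlib 3.10.9, with gene positions from GENCODE M21. The genes named are the 10 members, for each of 4 partner lists the 3 with the highest and the 3 with the lowest fold, and for each member the 3 most similar genes. The members and lists were chosen with earlier results of these data known.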

Additional observations from a re-analysis of the deposited data

How the results depend on the processing

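No paired analysis was possible because the pooled library has 1 sample and no group with a replicate number. The count of members highest in fibroblasts was 9 and became 10 with 1 more marker per gate, under which no pericyte or smooth muscle class was left, and stayed at 9 under the other 7 alternatives. All 10 members were at least 2-fold higher in fibroblasts under each of the 8 alternatives, doublets kept and carried RNA subtracted included, although the sizes moved. Of the 20 pairs of member and subset past 2-fold, all 20 stayed so, in the same direction, under 5 alternatives. Without the top barcode 19 did, and by clusters 15 of the 19 that could be compared, since no cluster took the Rasgef1c name. The count of members spanning over 4-fold between subsets was 6, and 9 by clusters. The count of pairs at least 2-fold above carried fibroblast RNA was least stable: from 19 it fell to 12 with doublets kept, 7 of them among the 19, and to 6 without the top barcode of each group and member. Those 6 were Efemp1 in basal and suprabasal keratinocytes, Fbln1 in basal and hair follicle keratinocytes, Mfap2 in hair follicle keratinocytes and Emilin1 in macrophages. Carried RNA could not be subtracted within fibroblasts, where it is not defined. Of 632 single values under the alternatives, 483 stayed inside the counting interval of the main value, 149 moved outside it and 0 reversed a fold past 2. Only folds past 2 could count as reversed. By clusters 29 of 76 values stayed inside and 47 moved. At each other thinning depth all 10 shares moved, since shares depend on depth. Intervals cover counting error in 1 library, so no value here shows how far animals or libraries would differ. Outside fibroblasts the fewest UMIs were those of Mfap4 (14), Fbln5 (67) and Emilin1 (68).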

Other observations

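A pair of partner genes outside the rule for named genes had large differences between fibroblast subsets, seen after their values were known. Hmcn1, which encodes hemicentin-1, a large matrix protein related to the fibulins, was at 254 CPM in Cyp2f2-gated fibroblasts, 17.0-fold (14.9 to 19.4) the other fibroblasts, and at 1.95 CPM in Pi16-gated fibroblasts. Outside fibroblasts it was highest in hair follicle keratinocytes at 386 CPM, the class in which Fbln1 was highest too. Thsd4, which encodes a protein that binds fibrillin-1 and promotes microfibril assembly, was at 429 CPM in Crabp1-gated fibroblasts, 5.16-fold (4.76 to 5.58) the other fibroblasts, and at 5.38 CPM on 6 UMIs in Cilp-gated fibroblasts. Eln had the reverse order in these subsets, with 41.9 CPM in Crabp1-gated and 687 CPM in Cilp-gated fibroblasts. The subsets set side by side here were picked after the values were seen. In Crabp1-gated fibroblasts 21.8% of 12727 genes were at least 2-fold higher, and in Cilp-gated fibroblasts 11.3% were at least 2-fold lower. Crabp1-gated barcodes also differed in depth and nuclear RNA, and the part of these was not tested.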
